A study of Mus musculus with 15 samples.

Results

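Cholecystokinin and its receptors are 3 genes, the peptide precursor gene Cck and the receptor genes Cckar (type A) and Cckbr (type B). They were read by symbol from a count table of 24420 genes in mouse cerebellum. The 3 genes were chosen with their values in these groups known, the low Cck level in 82Q against WT among them. Their levels and fold changes are therefore a description, given with no p-value.

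The libraries fall into 3 groups of 5. The group 82Q_M120A carries Atxn1[82Q] together with CalphaLoxM120A, by its name an altered C-alpha subunit of protein kinase A (gene Prkaca), on a mixed C57BL/6J and FVB/nJ background at 8 weeks of age. The group 82Q carries Atxn1[82Q] alone, the allele of a mouse model of spinocerebellar ataxia type 1, on FVB/nJ at 9 weeks. The WT group is wild type FVB/nJ, also at 9 weeks. All 82Q_M120A mice carry the ataxia allele too, and no group has the kinase allele alone. For every 82Q_M120A comparison the kinase allele, strain and age therefore cannot be told apart. In 82Q_M120A against WT the ataxia allele differs as well and cannot be told apart from these. The series' design text calls Atxn1[82Q] a knockin, and no promoter or Cre driver is given in the sources used here. Libraries within a group are called replicates in the labels, with no word on separate animals. Any p-value thus measures the spread between these libraries, which may be technical.

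Library totals ran from 38.3 to 99.4 M counts (M, the unit that CPM counts are scaled to). Values are CPM, counts scaled to a common library total with trimmed-mean (TMM) factors. Granule cell and Purkinje cell markers were high in every library, with summed levels of at least 3947 CPM for 6 granule cell genes and at least 4019 CPM for 16 Purkinje cell genes. Atxn1 counts were 50.6 to 55.8 CPM in 82Q_M120A, 54.1 to 58.6 CPM in 82Q and 46.4 to 62.2 CPM in WT libraries. Prkaca counts were 138 to 150 CPM in 82Q_M120A, 158 to 173 CPM in 82Q and 164 to 173 CPM in WT libraries. Gene counts do not separate the altered alleles from the normal ones. The 7 choroid plexus markers varied widely within groups, with a summed level of 22.9 to 2062 CPM in 82Q_M120A, 43.1 to 2803 CPM in 82Q and 37.6 to 2612 CPM in WT.

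Cholecystokinin is a peptide of gut endocrine cells and of many brain neurons. Its precursor is cleaved by prohormone convertases, sulfated on tyrosine and amidated before release from dense-core vesicles. The type A receptor prefers the sulfated peptide and the type B receptor also binds gastrin; both couple mainly to Gq, which activates phospholipase C. In the cerebellum the peptide has been studied as a product of Purkinje cells, whose axons carry the output of the cerebellar cortex and which degenerate in this ataxia.

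The 5′ flanks of Cck and Cckbr are shown because Cck is the member whose transcript level separated all 3 groups, and Cckbr is the receptor gene that could be measured. Each is the 250 bases before the start used in the RefSeq promoter table (GRCm38.p6, the mm10 assembly), which is also the first GENCODE start of the gene, read 5′ to 3′ on the gene's own strand, at chr9:121495695-121495944 on the minus strand for Cck and chr7:105425481-105425730 on the plus strand for Cckbr. The RefSeq record of the whole Cckbr gene begins earlier, at base 105425676, inside the printed flank. Capitals mark the E-box CACGTG, the binding motif of basic helix-loop-helix factors, and in Cck also TGCGTCA, a variant of the cyclic AMP response element.
Cck: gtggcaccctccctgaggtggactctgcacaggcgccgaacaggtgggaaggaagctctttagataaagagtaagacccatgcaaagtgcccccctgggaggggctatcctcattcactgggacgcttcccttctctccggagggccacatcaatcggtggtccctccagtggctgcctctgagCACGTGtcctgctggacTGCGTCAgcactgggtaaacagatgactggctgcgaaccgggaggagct
Cckbr: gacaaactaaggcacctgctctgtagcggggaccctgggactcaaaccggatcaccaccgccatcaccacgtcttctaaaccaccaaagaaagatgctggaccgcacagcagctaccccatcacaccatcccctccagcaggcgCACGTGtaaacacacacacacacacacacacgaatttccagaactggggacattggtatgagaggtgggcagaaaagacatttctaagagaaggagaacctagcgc

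Counted from those GENCODE starts, the E-box begins 66 bases before Cck and 106 bases before Cckbr, and the element TGCGTCA begins 49 bases before the start of Cck. On either strand, CACGTG occurs in 6.04% of the 32536 RefSeq flanks of this length and TGCGTCA (reverse complement TGACGCA) in 1.76%. Neither flank holds the full element TGACGTCA (1.56% of flanks), the GC box GGGCGG (33%), or the octamers TGAATGAA (1.09%) and TGAATGGA (0.993%), which the ataxin-1 partner CIC binds. These motifs were picked with the sequences in view, do not overlap each other in these flanks, and are matches of letters only.

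Cck was highest in WT cerebella, lowest in 82Q and in between in 82Q_M120A. The gene lies at chr9:121489824-121495694 (mm10, minus strand). Cck stood at 12.9, 11.3, 7.93, 11.7 and 12.5 CPM in 82Q_M120A libraries 1 to 5. It stood at 6.91, 6.01, 5.36, 4.79 and 4.85 CPM in 82Q libraries 1 to 5, and at 30, 31.2, 28.3, 31.2 and 33.7 CPM in WT libraries 1 to 5. No 2 groups overlapped: the lowest 82Q_M120A library lay above the highest 82Q library, and the highest 82Q_M120A library lay far under the lowest WT library.

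The Cck means were 11.3 ± 1.97 CPM in 82Q_M120A, 5.58 ± 0.887 CPM in 82Q and 30.9 ± 1.98 CPM in WT (SD, n = 5 each). In 82Q against WT, Cck was 5.53-fold lower (log2 fold change -2.47 ± 0.12, approximate standard error). In 82Q_M120A against 82Q, Cck was 2.02-fold higher (1.01 ± 0.12), and in 82Q_M120A against WT it was 2.74-fold lower (-1.45 ± 0.12). Cck thus stood at 36.5% of the WT mean in 82Q_M120A and at 18.1% in 82Q. The 82Q_M120A mean covered 22.5% of the distance from the 82Q mean to the WT mean, with 9.26% in its lowest library and 28.9% in its highest.

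Each Cck value rested on 776 to 1314 counts in 82Q_M120A, 349 to 522 counts in 82Q and 1261 to 2401 counts in WT. Counting alone gives a coefficient of variation of 2.76% to 3.59% in 82Q_M120A and 4.38% to 5.35% in 82Q libraries, against 2.04% to 2.82% in WT. The observed coefficients were 17.5% in 82Q_M120A, 15.9% in 82Q and 6.42% in WT, so the libraries differed by more than counting error in every group. Library 3 of 82Q_M120A was the farthest from its group mean.

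**Figure D1:**
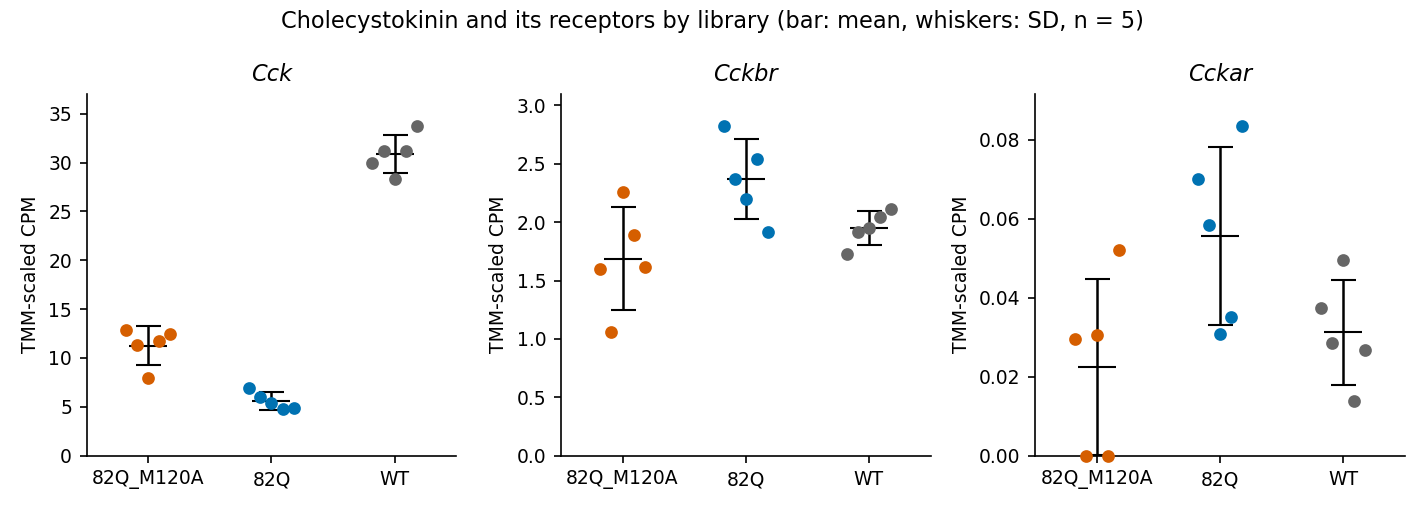
TMM-scaled CPM of Cck, Cckbr and Cckar in each of 15 libraries (points), with group mean (bar) and SD (whiskers, n = 5). Cck separates the 3 groups (7.93 to 12.9 CPM in 82Q_M120A, 4.79 to 6.91 CPM in 82Q, 28.3 to 33.7 CPM in WT), Cckbr overlaps between groups and Cckar lies near 0.

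Among the 16808 tested genes, the share whose groups did not overlap was 9.79% for lower values in 82Q against WT. It was 6.63% for higher values in 82Q_M120A against 82Q and 12.9% for lower values in 82Q_M120A against WT. Only 32 tested genes (0.19%) had all 3 groups apart in the order of Cck, with 82Q lowest and WT highest. Among these, Cck had the largest log2 fold change in 82Q_M120A against 82Q. The next 4 were the adrenergic receptor gene Adra2b (0.99), Nlrp10 (0.83), the predicted gene Gm5083 (0.65) and Hpcal1 (0.59), which encodes a neuronal calcium sensor. These 4 genes were named after their values were seen. Cck belongs to these genes by the values it was chosen on, so its place is a description.

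The log2 difference of 82Q from WT was larger for Cck than for the mean of the Purkinje cell markers, and so was that of 82Q_M120A from 82Q. The Purkinje level is the mean log2 CPM of 16 genes, among them Pcp2, Calb1 and Itpr1. This level was 6.98 ± 0.13 in 82Q_M120A, 6.88 ± 0.09 in 82Q and 8.00 ± 0.05 in WT (SD, n = 5 each). The 82Q_M120A range, 6.78 to 7.13, overlapped the 82Q range of 6.73 to 6.95, and both lay under the WT range of 7.93 to 8.05. Of the 5 libraries of 82Q_M120A, 3 lay above every 82Q library. In bulk tissue, fewer Purkinje cells and less of these transcripts per cell cannot be told apart.

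Cck minus the Purkinje level, both on the log2 CPM scale, was -3.33, -3.45, -3.79, -3.46 and -3.48 in 82Q_M120A libraries 1 to 5. It was -4.09, -4.35, -4.53, -4.62 and -4.44 in 82Q libraries 1 to 5, and -3.12, -2.96, -3.20, -3.02 and -2.97 in WT libraries 1 to 5. The 3 groups did not overlap on this scale either, and the gap between 82Q_M120A and WT was the smallest. The group means differed by -1.35 for 82Q against WT, by 0.91 for 82Q_M120A against 82Q and by -0.45 for 82Q_M120A against WT.

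**Figure D2:**
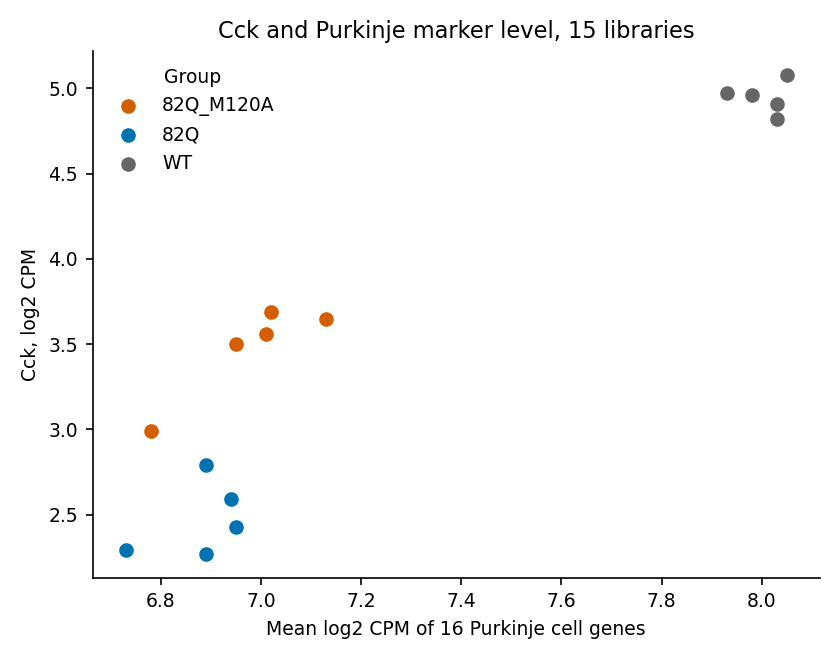
Log2 CPM of Cck against the mean log2 CPM of 16 Purkinje cell genes, 1 point per library (n = 5 per group). 82Q_M120A and 82Q libraries overlap on the horizontal axis (6.78 to 7.13 in 82Q_M120A, 6.73 to 6.95 in 82Q) and are apart on the vertical axis (2.99 to 3.69 in 82Q_M120A, 2.27 to 2.79 in 82Q), with WT apart on both.

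Within groups, Cck and the Purkinje level deviated from their group means in the same direction in 4 of 5 libraries of 82Q_M120A, 3 of 5 of 82Q and 1 of 5 of WT. Library 3 of 82Q_M120A was the lowest of its group in both, at -0.49 for Cck and -0.20 for the Purkinje level. Rgs8, whose product limits G protein signals, was also lowest there, at 377 CPM against 547 to 727 CPM in the other 82Q_M120A libraries.

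No Purkinje cell gene of the list was lower than Cck in 82Q against WT or higher in 82Q_M120A against 82Q. In 82Q against WT their log2 fold changes ran from -2.02 (Rgs8) to 0.02 (Foxp2) with a median of -1.13, and 15 of 16 fell (edgeR quasi-likelihood, Benjamini-Hochberg adjusted p under 0.05), against 10.1% of all tested genes. In 82Q_M120A against 82Q they ran from -0.17 (Slc1a6) to 0.50 (Rgs8) with a median of 0.07, and 3 of 16 rose, against 10.3% of all tested genes. The 3 were Rgs8 (adjusted p = 0.0143), the calcium channel regulator gene Car8 (0.48 ± 0.08, adjusted p = 6e-04) and the transcriptional corepressor gene Skor2 (0.31 ± 0.06, adjusted p = 0.00219). These counts were known in outline when the list was written. Both comparisons use the same 82Q libraries.

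The share of the 82Q to WT distance that 82Q_M120A covered differed between these genes. Among the 15 that fell in 82Q its median was 3.7%, from -11% for the glutamate transporter gene Slc1a6 to 45.4% for Skor2. Cck, at 22.5%, lay under Skor2 and Car8 (24.7%) and above the other 13, including the calcium buffer gene Calb1 (5.52%) and the Purkinje cell protein gene Pcp2 (3.7%).

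**Figure D3:**
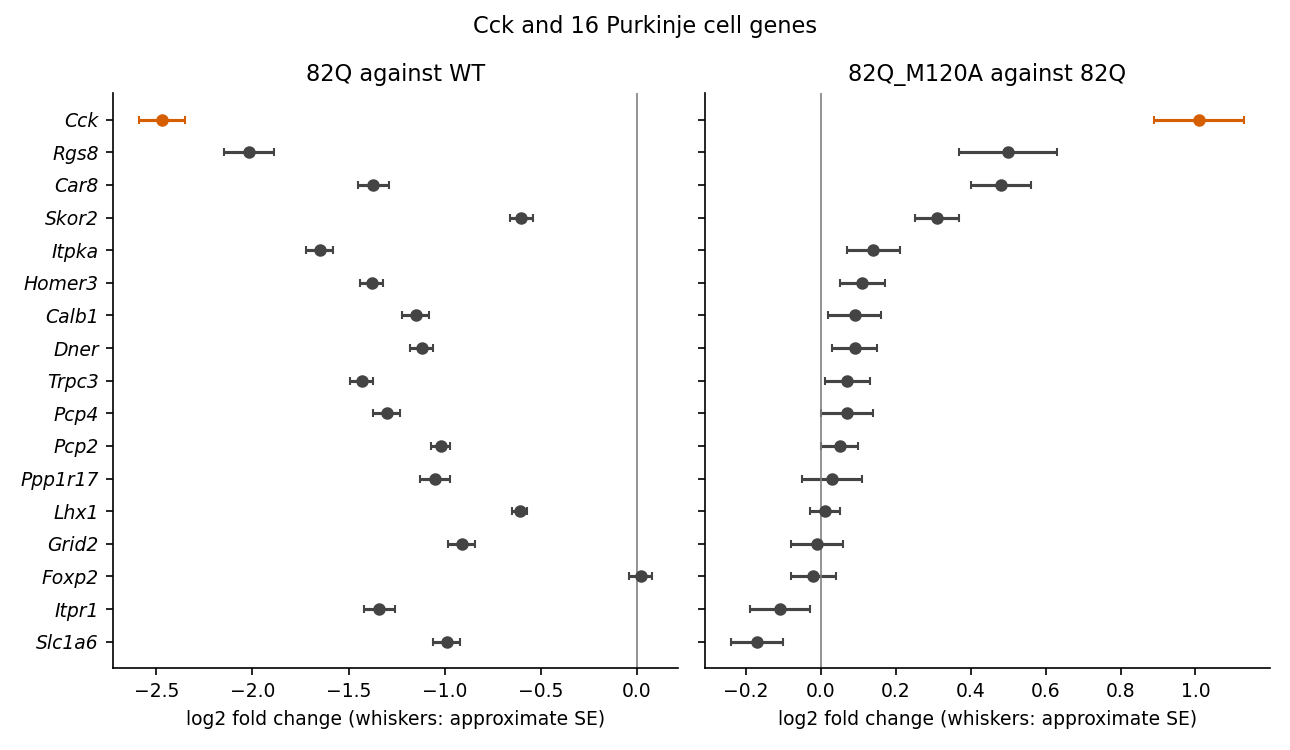
Log2 fold changes with approximate standard errors of Cck and 16 Purkinje cell genes in 82Q against WT (left) and 82Q_M120A against 82Q (right). Cck is the farthest from 0 in each panel (-2.47 and 1.01), and 13 of the other genes lie between -0.17 and 0.14 on the right.

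Markers of other cells are given beside Cck, and their part in its levels was not tested. Of 6 forebrain and tectum neuron genes, Tfap2d and Pou4f1 were at or near 0 (at most 0.108 CPM in any library), and the summed level of all 6 was 6.21 to 9.31 CPM in 82Q_M120A, 5.59 to 7.55 CPM in 82Q and 4.81 to 5.83 CPM in WT. Most of it was Neurod6, at 4.83 to 7.61 CPM in 82Q_M120A, 4.12 to 4.78 CPM in 82Q and 2.89 to 3.9 CPM in WT. The 6 brainstem and cerebellar nuclei genes summed to 19.7 to 30.2 CPM in 82Q_M120A, 20.7 to 34.7 CPM in 82Q and 15.1 to 26.4 CPM in WT, nearly all of it Slc17a6, with Hoxa5 and Hoxb5 at or near 0. The 6 microglia genes summed to 116 to 138 CPM in 82Q_M120A, 124 to 133 CPM in 82Q and 76 to 84.8 CPM in WT. The 6 oligodendrocyte genes summed to 6744 to 7364 CPM in 82Q_M120A, 5994 to 7261 CPM in 82Q and 4875 to 5892 CPM in WT. The 3 unipolar brush cell genes summed to 339 to 415 CPM in 82Q_M120A, 259 to 297 CPM in 82Q and 280 to 318 CPM in WT, and the 4 vascular genes to 160 to 184 CPM in 82Q_M120A, 126 to 142 CPM in 82Q and 131 to 146 CPM in WT. For these 2 of the 12 lists of other cells 82Q_M120A lay above both other groups without overlap. The 5 molecular layer interneuron and Golgi cell genes summed to 372 to 472 CPM in 82Q_M120A, 447 to 485 CPM in 82Q and 416 to 496 CPM in WT. The 5 astrocyte and Bergmann glia genes summed to 2443 to 2816 CPM in 82Q_M120A, 2501 to 2675 CPM in 82Q and 2448 to 2631 CPM in WT. WT library 4 had 37.6 CPM of the 7 choroid plexus markers and 31.2 CPM of Cck. The other 4 WT libraries had 1640 to 2612 CPM of the markers and 28.3 to 33.7 CPM of Cck. In 82Q_M120A, library 1 alone had high choroid plexus markers, 2062 CPM against 22.9 to 37.2 CPM in the other 4. It also had the highest Cck level of the group, 12.9 CPM against 7.93 to 12.5 CPM. In 82Q, libraries 1 to 5 had 43.1, 2803, 306, 88.4 and 2099 CPM of the markers. Their Cck levels were 6.91, 6.01, 5.36, 4.79 and 4.85 CPM.

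No annotated gene overlaps Cck. The nearest measured gene below it, Trak1, which encodes a mitochondrial transport adaptor 14.9 kb away, stood at 172 ± 10.4 CPM in 82Q_M120A, 177 ± 4.5 CPM in 82Q and 179 ± 4.29 CPM in WT (SD, n = 5 each). Trak1 was not called in any comparison (edgeR adjusted p = 0.479 for 82Q_M120A against 82Q, 0.789 for 82Q against WT and 0.223 for 82Q_M120A against WT). The nearest measured gene above it, Lyzl4, 82.1 kb away, was near the detection limit at 0.063 CPM in 82Q_M120A, 0.228 CPM in 82Q and 0.0891 CPM in WT on average. Lyzl4 rose where Cck was lower, in 82Q against WT (log2 fold change 1.43 ± 0.36, adjusted p = 0.00908), and fell in 82Q_M120A against 82Q (adjusted p = 0.00153).

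The type B receptor gene Cckbr, the main cholecystokinin receptor gene of the brain, was low and its groups overlapped. The gene lies at chr7:105425731-105470898 (mm10, plus strand). Cckbr stood at 1.6, 1.06, 2.26, 1.89 and 1.62 CPM in 82Q_M120A libraries 1 to 5. It stood at 2.82, 2.37, 2.2, 2.54 and 1.92 CPM in 82Q libraries 1 to 5, and at 1.73, 1.92, 1.95, 2.04 and 2.11 CPM in WT libraries 1 to 5. The 3 highest values were those of 82Q libraries and the 3 lowest those of 82Q_M120A libraries, with overlap between every pair of groups.

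The Cckbr means were 1.69 ± 0.438 CPM in 82Q_M120A, 2.37 ± 0.339 CPM in 82Q and 1.95 ± 0.146 CPM in WT (SD, n = 5 each), so the order of the groups was not that of Cck. Its log2 fold change was 0.28 ± 0.15 in 82Q against WT, -0.49 ± 0.15 in 82Q_M120A against 82Q and -0.20 ± 0.15 in 82Q_M120A against WT. The WT mean lay within the range of each other group. The values rested on 78 to 221 counts per library in 82Q_M120A, 138 to 216 counts in 82Q and 79 to 158 counts in WT. Counting error in a library was therefore 6.73% to 11.3% in 82Q_M120A, 6.8% to 8.51% in 82Q and 7.96% to 11.3% in WT. The observed coefficients of variation were 26% in 82Q_M120A, 14.3% in 82Q and 7.47% in WT. Its nearest measured neighbours, Cnga4 and Smpd1, were not called in 82Q against WT (adjusted p = 0.988 and 0.233, edgeR) or in 82Q_M120A against 82Q (adjusted p = 0.711 and 0.125). Smpd1 fell by 0.13 log2 units in 82Q_M120A against WT (adjusted p = 0.00379, 0.0565 with scaling by library size only), where Cnga4 was not called (adjusted p = 0.64).

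The type A receptor gene Cckar (chr5:53697776-53707705, mm10, minus strand) was at the detection limit. It had 3, 0, 3, 0 and 5 counts in 82Q_M120A libraries 1 to 5. It had 5, 5, 3, 3 and 6 counts in 82Q libraries 1 to 5, and 3, 2, 4, 1 and 1 counts in WT libraries 1 to 5. The sums were 11 counts in 82Q_M120A (exact 95% Poisson interval 5.49 to 19.7), 22 counts in 82Q (13.8 to 33.3) and 11 counts in WT (5.49 to 19.7), intervals that cover counting error only. Pooled over a group's libraries, these are 0.0249 CPM in 82Q_M120A (0.0124 to 0.0445), 0.0535 CPM in 82Q (0.0335 to 0.081) and 0.0323 CPM in WT (0.0161 to 0.0578), and the intervals overlap. Cckar did not pass the filter on low counts and was not fitted, so a difference between groups was not tested. Its nearest measured neighbours were Rbpj, a Notch pathway transcription factor gene at 39.6 CPM in 82Q_M120A, 33.6 CPM in 82Q and 30.4 CPM in WT on average, and Tbc1d19. Rbpj rose in 82Q_M120A against WT (0.38 ± 0.09, edgeR adjusted p = 0.00452).

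Levels of different genes are compared per kilobase of the first GENCODE transcript of each gene. On this scale Cck stood at 16.3 CPM per kb in 82Q_M120A, 8.08 in 82Q and 44.7 in WT. Cckbr stood at 0.655 CPM per kb in 82Q_M120A, 0.92 in 82Q and 0.758 in WT. The peptide transcript was thus 24.9 times the type B receptor transcript in 82Q_M120A, 8.78 times in 82Q and 59 times in WT. The type B receptor transcript was 85.6 times that of type A in 82Q_M120A, 48.5 times in 82Q and 71.1 times in WT, ratios that rest on few Cckar counts.

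The genes whose profile over the 15 libraries was most like that of Cck were found among 13283 tested genes with at least 1 CPM on average. The measure was the root mean square difference in log2 CPM after each gene was set to its WT mean. In order, the 10 nearest were Nlrp10, Cdc20, Rgs8, Espn, Grid2ip, Plekhd1os, Stac, Gpr63, Adprhl1 and Doc2b, with distances of 0.276 to 0.418 against a median of 1.68 over all genes ranked. The genes were chosen for their likeness to Cck in these same libraries, so low 82Q levels were fixed by the choice and their values are given with no test. Cckbr was at 1.76, no nearer than the median gene, and the median of the Purkinje cell genes was 0.823.

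Nlrp10, of the NOD-like receptor family, stood at 1.16 ± 0.342 CPM in 82Q_M120A, 0.651 ± 0.0811 CPM in 82Q and 3.26 ± 0.485 CPM in WT (SD, n = 5 each). Its log2 fold change was -2.31 ± 0.18 in 82Q against WT and 0.83 ± 0.18 in 82Q_M120A against 82Q. Cdc20, an activator of the anaphase-promoting complex, stood at 1.44 ± 0.215 CPM in 82Q_M120A, 1.08 ± 0.138 CPM in 82Q and 5.15 ± 0.613 CPM in WT, with a log2 fold change of 0.41 ± 0.12 in 82Q_M120A against 82Q. In that comparison the 7 genes other than Nlrp10, Cdc20 and Rgs8 had log2 fold changes of 0.11 to 0.34. They include the actin-bundling gene Espn (0.34 ± 0.14), the scaffold gene Grid2ip, whose product binds the Purkinje cell receptor GluD2 (0.20 ± 0.07), and the vesicle release gene Doc2b (0.19 ± 0.06). Plekhd1os is an antisense transcript, and without a stated strand setting its reads cannot be told apart from those of its partner gene. Flanks of the same length were found for 8 of the 10 genes. Of these 8, 3 hold CACGTG and none holds TGCGTCA, against 6.04% and 1.76% of all RefSeq flanks of this length. The GC box GGGCGG, absent from the Cck flank, is in 4 of the 8, against 33% of all flanks. The motifs were picked with the Cck flank in view and the genes for likeness to Cck, and shared regulation was not tested.

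**Figure D4:**
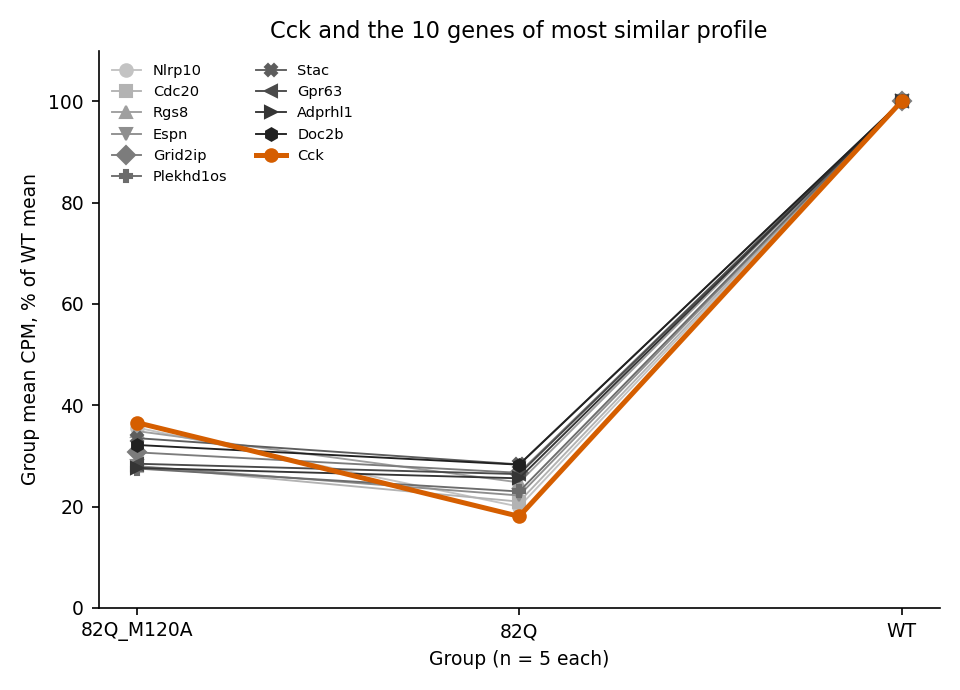
Group means of Cck and the 10 genes of most similar profile as a percentage of each gene's WT mean (n = 5 per group; lines join the means of a gene). Cck is the highest of the 11 genes in 82Q_M120A (36.5%) and the lowest in 82Q (18.1%).

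Of the genes that mature, store and release peptides, Pcsk1 was lower in 82Q than in both other groups, as Cck was. Pcsk1, a prohormone convertase that cleaves the cholecystokinin precursor, stood at 15, 13.5, 13.3, 11.4 and 16.3 CPM in 82Q_M120A libraries 1 to 5. It stood at 10.4, 10.8, 10.1, 9.04 and 8.11 CPM in 82Q libraries 1 to 5, and at 14.7, 12.9, 14.4, 15.4 and 16.2 CPM in WT libraries 1 to 5. All 82Q libraries lay under all others, while 82Q_M120A and WT overlapped. Pcsk1 fell in 82Q against WT by 0.60 log2 units (SE 0.09, edgeR adjusted p = 1.51e-04) and rose in 82Q_M120A against 82Q by 0.52 ± 0.09 (adjusted p = 7.29e-04). In 82Q_M120A against WT its log2 fold change was -0.08 ± 0.09 (adjusted p = 0.55), and it covered 84.3% of the 82Q to WT distance.

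In the list of 20 such genes, 1 rose and 2 fell in 82Q against WT, against 8.63% and 10.1% of all tested genes, with a median log2 fold change of -0.01 (0.01 over all tested genes). The lysosomal protease gene Ctsl, whose product also processes the precursor in mice, fell by 0.23 log2 units (adjusted p = 0.00291), and the carboxypeptidase gene Cpd rose by 0.16 ± 0.04 (adjusted p = 0.0154). In 82Q_M120A against 82Q, 2 rose and 4 fell, against 10.3% and 8.63% of all tested genes, with a median of -0.02. Beside Pcsk1 the granin gene Scg2 rose (0.14 ± 0.05, adjusted p = 0.0356), a call lost on leaving out any of 6 libraries. Cpd, the vesicle priming gene Cadps and Pam, the amidating enzyme gene, fell by 0.24, 0.09 and 0.23 log2 units (adjusted p = 8.43e-04, 0.0311 and 7.49e-04). The Cadps call was lost under 6 of 15 alternatives, with an adjusted p of up to 0.0837. The second convertase gene Pcsk2, the sulfotransferase genes Tpst1 and Tpst2 and the carboxypeptidase gene Cpe were not called in any of the 3 comparisons.

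The largest change in the list was that of Scg5, which encodes 7B2, the chaperone of the convertase that Pcsk2 encodes. Scg5 stood at 127 to 156 CPM in 82Q_M120A, 408 to 430 CPM in 82Q and 419 to 462 CPM in WT, so only 82Q_M120A was apart. It fell in 82Q_M120A against 82Q by 1.53 log2 units (SE 0.05, adjusted p = 8.54e-13) and in 82Q_M120A against WT by 1.60 (adjusted p = 3.78e-13). In 82Q against WT it was not called (-0.08 ± 0.05, adjusted p = 0.303). In 82Q_M120A against WT, 2 genes of the list rose and 2 fell, against 18.6% and 17.8% of all tested genes, Pam among them (-0.24 ± 0.04, adjusted p = 1.97e-04).

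Of 3 genes of peptidases that degrade cholecystokinin, Tpp2, Mme and Enpep, none was called in 82Q against WT by edgeR (adjusted p of 0.596 to 0.967), against 8.63% higher and 10.1% lower of all tested genes. The neprilysin gene Mme fell in 82Q_M120A against 82Q by 0.45 log2 units (SE 0.10, adjusted p = 0.0057) and in 82Q_M120A against WT by 0.36 (adjusted p = 0.0137), at 2.06 ± 0.255 CPM in 82Q_M120A, 2.82 ± 0.31 CPM in 82Q and 2.64 ± 0.258 CPM in WT. The aminopeptidase gene Enpep rose in 82Q_M120A against WT (0.21 ± 0.07, adjusted p = 0.0355), a call lost on leaving out any of 8 libraries.

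**Figure D5:**
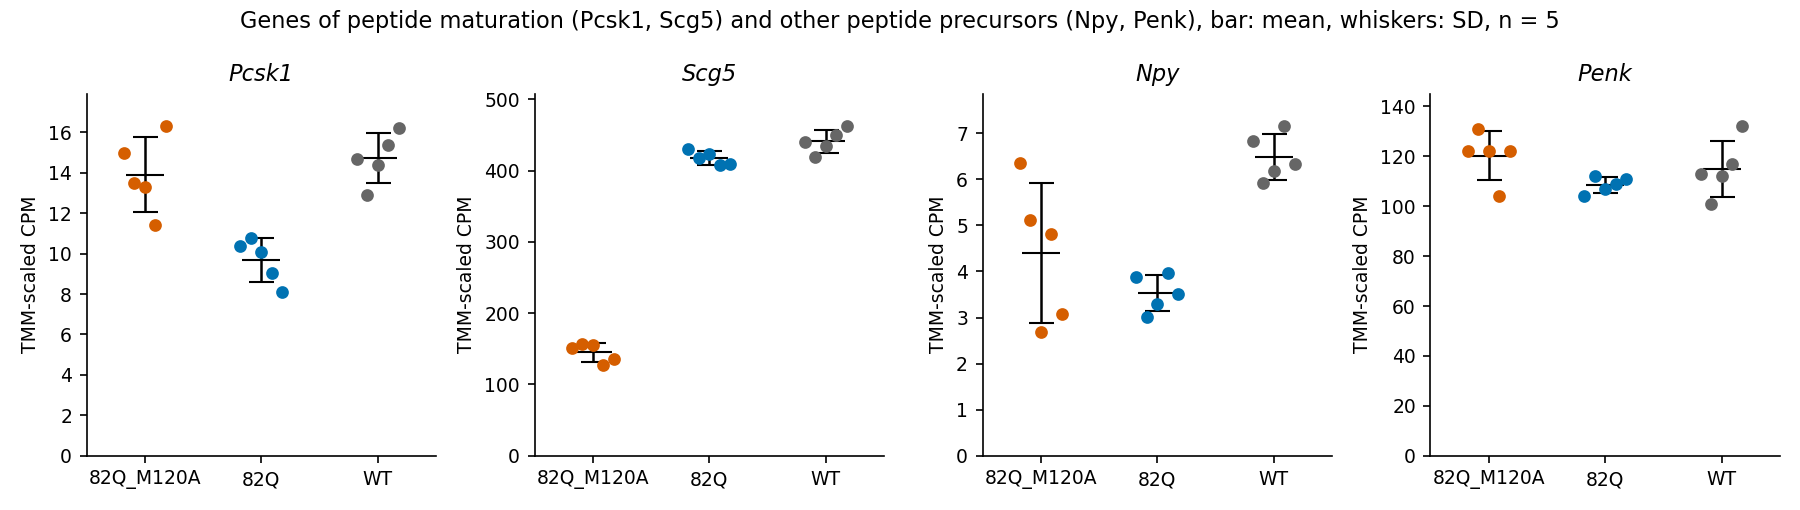
TMM-scaled CPM of Pcsk1 and Scg5, which act in peptide maturation, and of the precursor genes Npy and Penk in 15 libraries (points), with group mean (bar) and SD (whiskers, n = 5). Pcsk1 and Npy are lowest on average in 82Q (9.69 and 3.53 CPM), Scg5 is low in 82Q_M120A alone (145 CPM), and the Penk groups overlap.

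Genes of signalling downstream of the receptors also serve other Gq receptors, and a link of their changes to cholecystokinin was not tested. Of 20 such genes 6 fell and 2 rose in 82Q against WT, against 10.1% and 8.63% of all tested genes, with a median of -0.05. Plcb3 and Itpr1 fell most. Plcb3, a phospholipase C gene, stood at 49.7 ± 7.07 CPM in 82Q_M120A, 39.9 ± 1.49 CPM in 82Q and 103 ± 4.01 CPM in WT (SD, n = 5 each). It fell in 82Q against WT by 1.37 log2 units (edgeR adjusted p = 5.84e-10) and rose in 82Q_M120A against 82Q by 0.32 ± 0.07 (adjusted p = 0.00584). The inositol trisphosphate receptor gene Itpr1, which is also in the Purkinje cell list, fell in 82Q against WT by 1.34 (adjusted p = 2.53e-09). The G protein gene Gnaq, which encodes the subunit both receptors use, fell by 0.25 (adjusted p = 3.21e-05).

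Of the same 20 genes, 5 rose and 1 fell in 82Q_M120A against 82Q, against 10.3% and 8.63% of all tested genes, with a median of 0.03. Grk5, a kinase that desensitises receptors, rose by 0.35 ± 0.06 (adjusted p = 6e-04) to 23 ± 2.35 CPM in 82Q_M120A, against 18 ± 0.797 CPM in 82Q, with 21.9 ± 1.23 CPM in WT. The arrestin gene Arrb1 rose by 0.21 ± 0.04 (adjusted p = 0.00222), and the low phospholipase gene Plcb2 fell by 0.55 (adjusted p = 0.00422). In 82Q_M120A against WT, 5 rose and 5 fell, against 18.6% and 17.8% of all tested genes. There Itpr1 fell by 1.45 and Plcb3 by 1.05, and the protein kinase C gene Prkce rose by 0.43 ± 0.06 (adjusted p = 8.75e-10, 8.85e-09 and 1.21e-05).

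Of 42 other neuropeptide precursor genes 21 could be tested and 21 did not pass the filter, with at most 0.276 CPM in any library. Gast, the gene of gastrin, the other ligand of the type B receptor, had no count in any of the 15 libraries, which allows up to 0.0295 CPM in the deepest library and 0.0802 CPM in the shallowest. Per kilobase, Cck ranked 2, after the enkephalin gene Penk, among 43 precursor genes in WT and in 82Q_M120A, and 3 in 82Q, after Penk and Npff.

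In 82Q against WT, 1 of the 21 tested precursor genes fell and 1 rose, against 10.1% and 8.63% of all tested genes, with a median of 0.12. Npy, the neuropeptide Y gene, stood at 6.36, 5.12, 2.68, 4.82 and 3.07 CPM in 82Q_M120A libraries 1 to 5. It ranged from 3.01 to 3.96 CPM in 82Q and from 5.93 to 7.15 CPM in WT, so 82Q and WT did not overlap and 82Q_M120A reached into both. Npy fell in 82Q against WT by 0.88 log2 units (SE 0.18, adjusted p = 0.0029) and was not called in 82Q_M120A against 82Q (0.32 ± 0.18, adjusted p = 0.252). Rln1 rose in 82Q against WT (1.17 ± 0.38, adjusted p = 0.0405) at a mean of 0.148 CPM in 82Q and 0.0717 CPM in WT. The Rln1 call was lost under 7 of the 12 alternatives in which the gene was fitted. These were DESeq2, the fit without the filter on low counts and 5 fits that each left out 1 library. Penk, at 120 ± 9.63 CPM in 82Q_M120A, 108 ± 3.04 CPM in 82Q and 115 ± 11.1 CPM in WT, was not called in any comparison.

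Of the 21 precursor genes, 2 rose and 4 fell in 82Q_M120A against 82Q, against 10.3% and 8.63% of all tested genes. Adcyap1, the gene of the peptide PACAP, rose by 2.27 ± 0.49 (edgeR adjusted p = 0.00521), but unevenly: it stood at 4.33, 0.612, 4.9, 4.66 and 8.76 CPM in 82Q_M120A libraries 1 to 5, and at 0.709 to 1.33 CPM in 82Q. Pnoc, the nociceptin gene, fell by 0.63 log2 units (adjusted p = 0.00197). In 82Q_M120A against WT, 3 rose and 3 fell, against 18.6% and 17.8% of all tested genes, among them Adcyap1 (2.53 ± 0.50, adjusted p = 0.00145), Nts (2.25 ± 0.69, adjusted p = 0.0194), Pnoc (-0.41 ± 0.13, adjusted p = 0.018) and Npy (-0.56 ± 0.18, adjusted p = 0.0248). Nts was low and uneven, at 0.0551 to 0.958 CPM in 82Q_M120A and 0.0139 to 0.185 CPM in WT libraries, and these ranges overlapped. The Nts call was lost without WT library 1 (adjusted p = 0.0516). The Npy call was lost without WT library 4, without 82Q_M120A library 5 and in a fit to only the groups compared (adjusted p up to 0.056).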

How the data were processed

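RNA from mouse cerebellum was sequenced from 15 samples in 3 groups of 5. Per the submitters' processing notes, the tools were CASAVA 1.8, HISAT2 2.0.1, featureCounts, Subread, R 3.3.3 and DESeq2 1.14.1 with build mm10. The deposited values are counts per gene symbol. For gene annotation, strand setting and multiply mapping reads the sources used here give nothing. Column headers show a group without a replicate number, and libraries carry their column's place within the group as a name. Here, edgeR 4.0.16 (limma 3.58.1, R 4.3.3) modelled the 15 libraries by group: TMM factors, filterByExpr defaults (16808 genes tested), robust quasi-likelihood tests, two-sided, Benjamini-Hochberg adjustment over all tested genes, called at adjusted p under 0.05. Standard errors are the absolute log2 fold change over the square root of F. The log2 CPM values use a prior count of 2. The fit was tested on simulated data. Coordinates and the first transcript of each gene come from GENCODE M21 (mm10), flanks from RefSeq (2 of 3 members matched). Alternatives were DESeq2 1.42.0, scaling by RLE factors or by library size only, omitting the low-count filter, a fit to only the groups compared, and leaving out each library; for the Purkinje level also 5 defining markers and a prior count of 0.5. The members and all lists were chosen with earlier results of these data known. Genes named are the members; in each list and comparison the called genes of lowest adjusted p (at most 4), or, with none called, the 2 of highest level; the 10 nearest profiles, predicted models left out; the 5 most abundant precursors; and the nearest measured neighbours. Other genes named, such as Cadps, Neurod6 and the Purkinje cell genes beside the median, were chosen after their values were seen, and the text prints fewer than the rule allows; some genes of the lists are not reported here. The older symbols Adrbk1 and Adrbk2 stand for Grk2 and Grk3. Counts have no molecular identifiers.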

Additional observations from a re-analysis of the deposited data

Results flagged for a closer look

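In 8 of 144 groups of 5 libraries checked (48 genes or levels in 3 groups each) the highest or lowest library stood apart, with a gap to its nearest neighbour above 0.71 of the group's range. Chance flags about 1 in 20 groups. None concerns Cck, Cckbr, Cckar or the Purkinje level. Ctsl was low in 82Q_M120A-4 at 101 CPM (120 to 127 CPM in the other 4) and high in 82Q-2 at 115 CPM (106 to 109 CPM). Npff was high in WT-1 at 4.26 CPM (3.81 to 3.92 CPM). Pam was low in 82Q-4 at 59.3 CPM (61.6 to 62.3 CPM). Plcb2 was low in 82Q_M120A-4 at 0.772 CPM (0.943 to 0.97 CPM). Pnoc was low in WT-1 at 3.86 CPM (4.25 to 4.41 CPM). Prkce was high in 82Q-4 at 272 CPM (244 to 251 CPM), and Tpp2 was high in 82Q-3 at 86.4 CPM (77 to 79.7 CPM).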

How the results depend on the processing

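No paired analysis was possible because the columns carry no replicate number. The log2 fold changes of Cck and Cckbr and the difference of Cck from the Purkinje level moved by less than 1 SD of the libraries under every alternative run for them. Leaving out 1 library at a time gave -2.56 to -2.42 for Cck in 82Q against WT, 0.96 to 1.12 in 82Q_M120A against 82Q and -1.51 to -1.35 in 82Q_M120A against WT. For Cckbr it gave 0.21 to 0.35, -0.62 to -0.36 and -0.33 to -0.08 in the same 3 comparisons, the last 2 ranges set by leaving out 82Q_M120A library 3 or 2. Cckar was not fitted, since its few counts limit it. Scaling by library size only called 3063 genes higher in 82Q against WT (1451 with TMM), so that 73% of calls were higher against 46.2%, and 68.8% against 51.1% in 82Q_M120A against WT; the cause was not tested. No direction reversed. Of the calls of list genes and neighbours, 26 of 28 in 82Q against WT, 17 of 23 in 82Q_M120A against 82Q and 29 of 38 in 82Q_M120A against WT held under every alternative. These calls include Purkinje cell genes, 15 in each comparison with WT and 3 in 82Q_M120A against 82Q, all of which held. Every call that was lost thus lay outside the Purkinje cell list. Pcsk1, Scg5, Plcb3 and Grk5 held wherever they were called.

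The small counts of list genes moved most, for causes not tested. In 82Q against WT, maturation genes called higher numbered 2 with DESeq2 and 3 by library size (1 in the report), signalling genes higher 4 by library size (2), and precursors higher 0 with DESeq2 or no filter and 2 by library size (1). In 82Q_M120A against 82Q, signalling genes lower numbered 2 with DESeq2 (1), and precursors lower 2 with only the groups compared (4). In 82Q_M120A against WT, maturation genes higher numbered 1 with RLE factors, no filter or only the groups compared and 4 by library size (2), peptidase genes higher 0 without the filter (1), and precursors lower 1 with only the groups compared (3).

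Leaving out 1 library at a time, in 82Q against WT signalling genes higher ranged from 1 (without WT library 5 or 82Q library 4) to 3, and precursors higher from 0 to 1, with 0 in 7 of 10 cases. In 82Q_M120A against 82Q, maturation genes higher ranged from 1 to 4 (4 without 82Q_M120A library 1), peptidase genes higher from 0 to 1 and signalling genes lower from 1 to 2 (the higher count without 82Q library 4 or 82Q_M120A library 1). There, precursors higher ranged from 1 to 4 (4 without 82Q_M120A library 3 or 4) and precursors lower from 2 (without library 3 of either group) to 4. In 82Q_M120A against WT, maturation genes higher ranged from 0 to 2, peptidase genes higher from 0 to 1, and precursors lower from 1 (without 82Q_M120A library 5) to 3.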
